A study of Mus musculus with 24 samples.

Results

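LINE-1 (L1) elements were followed as 133 repeat subfamilies among the 1146 repeat subfamilies counted in mouse embryonic stem cells, beside 55487 genes. Members were chosen by name alone, as every counted row whose family is L1 and whose class is LINE. The 6 subfamilies whose names start with L1Md were set against the other 127. Those 127 were split again by name into 33 rodent-named subfamilies (names starting with L1_Mus, L1_Mur, L1_Rod, L1VL, Lx or MusHAL) and 94 mammal-wide and other subfamilies (L1M, L1P, HAL1 and the rest). These are groups of names, not measured ages, and L1_Mm, although a mouse name, falls in the last group by this rule.

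LINE-1 elements are retrotransposons that copy themselves through an RNA intermediate with an enzyme they encode. Most copies in the genome are truncated remnants, and in mouse the L1Md subfamilies A, Gf and T hold the copies known to be still mobile. The Lx and L1_Mus names mark older rodent elements, and the L1M names mark elements shared across mammals. LINE-1 RNA is known to be abundant in the early mouse embryo, and DUX is a transcription factor of the 2-cell embryo that can bring stem cells into a similar state, in which the endogenous retrovirus MERVL is also switched on.

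The cells were of the KH2 line, an embryonic stem cell line, and all 24 library titles name TRE_DUX, a DUX transgene that doxycycline induces. There were 12 groups of 2 libraries. WT and the line labelled DUXBL-KO formed one set of 8 libraries. WT pLV2 line 1, WT pLV2 line 2 and the lines labelled TRIM24-KO and TRIM33-KO formed a second set of 16 (the pLV2 set). Each line was sampled without doxycycline (no DOX) and after 16 h of doxycycline (DOX). The meaning of pLV2 is not given in the labels, nor are how many clones each line comes from and which WT pLV2 line belongs to which knockout. Nothing says that the libraries of a group came from separate cultures. The p-values therefore measure only the spread between these libraries, which may be technical.

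Each library held between 11784696 and 19136869 gene counts, and its L1 counts ranged from 151973 to 494794. In 8 pLV2 libraries the treatment tag and the title disagree. The titles were followed, and Dux had 0 to 2 counts in the libraries titled without DOX and 20 to 110 in those titled with DOX. Trim33 was lower in TRIM33-KO than in the mean of both WT pLV2 lines (log2 fold change -2.57 ± 0.07 SE, adjusted p = 8.29e-13). Trim24 in the line labelled TRIM24-KO did not differ from that mean by the test (0.01 ± 0.08, adjusted p = 0.991). Its level without DOX, 138 and 126 CPM (counts scaled to the library's gene counts after TMM adjustment), lay above WT pLV2 line 1 (97.3 and 93.1) and below line 2 (198 and 165), so the direction depends on the reference. Duxbl1 had 0.866 and 0.319 CPM in the line labelled DUXBL-KO and 1.83 and 0.365 in WT, without DOX. With DOX it had 11.0 and 5.02 CPM in DUXBL-KO and 8.41 and 3.25 in WT, which is not lower and goes against the label. Whole-gene counts do not show which part of a gene was altered, so every direction given for those lines rests on the label. All 10 stem cell markers were detected in every group, with a summed level of 4109 to 6113 CPM.

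The library TRIM24-KO DOX replicate 2 stood apart. The gene CT010467.1 took 30.4% of its gene counts (Wilson 95% interval 30.41 to 30.46, counting error only), and 12.9% in TRIM33-KO DOX replicate 2, against 0.0871% to 1.30% in the other 22 libraries. The TMM adjustment set its library size to 60.4% of its gene counts, against 80.3% in TRIM33-KO DOX replicate 2 and 93.7% to 115% in the others, so its CPM values lie above its plain share of gene counts. The L1Md share of L1 counts was 48.3% in TRIM24-KO DOX replicate 2 and 32.1% in replicate 1. For TRIM24-KO with DOX, the main counts of L1 calls, the medians, the sums and the L1Md values other than L1Md_Gf are given with and without it. Other values of TRIM24-KO with DOX include it. Among them are calls shared over lines, counts scaled on repeats alone and the genes linked to L1 control.

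DOX raised L1 RNA in all 6 lines, where repeats as a whole also rose. The L1Md and rodent-named subfamilies rose more than the mammal-wide ones by their medians. The mammal-wide median lay below that of all repeats in each line. L1Md_F3 rose in every line and L1Md_A in all 4 pLV2 lines. The calls in WT depended on the processing, as given below. L1Md_T, the most abundant L1Md subfamily in most libraries, passed the threshold in 3 lines, but its call in TRIM24-KO was lost without DOX replicate 2, and its call in WT pLV2 line 2 without either of 2 libraries. No L1 subfamily was called lower with DOX in any line.

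L1Md_F3 had 371 and 363 CPM without DOX and 813 and 589 with DOX in WT, and 403 and 486 against 1063 and 848 in DUXBL-KO. In the pLV2 set it had 272 and 272 against 771 and 868 in WT line 1, 297 and 249 against 2088 and 1517 in WT line 2. TRIM24-KO went from 239 and 249 to 622 and 954, whereas TRIM33-KO went from 320 and 384 to 2904 and 2702. Every DOX library lay above every library without DOX of its own line. The log2 fold change of L1Md_F3 was 0.93 ± 0.18 (SE, adjusted p = 0.0372) in WT and 1.10 ± 0.18 (0.0117) in DUXBL-KO. The pLV2 lines gave 1.59 ± 0.17 (1.35e-06) for WT line 1, 2.72 ± 0.17 (1.13e-09) for WT line 2, 1.69 ± 0.17 (5.64e-07) for TRIM24-KO and 2.99 ± 0.18 (2.47e-10) for TRIM33-KO. Leaving out a library leaves an arm of 1, which is then assumed to vary like the other groups, and a call can be lost that way with the fold kept. The WT value of L1Md_F3 was 0.96 (adjusted p = 0.202) without WT no DOX replicate 1, 0.94 (0.217) without replicate 2 and 0.68 (0.177) without WT DOX replicate 1. Its DUXBL-KO value was 0.97 (0.0863) without no DOX replicate 1 and 0.93 (0.0735) without DOX replicate 1. Without TRIM24-KO DOX replicate 2 its rise in TRIM24-KO was 1.34 (2.15e-06).

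L1Md_A started from different levels in the lines. It had 975 and 1521 CPM without DOX and 1400 and 1972 with DOX in WT, and 848 and 1429 against 1571 and 1662 in DUXBL-KO. In the pLV2 set it had 787 and 779 against 1449 and 1484 in WT line 1, 285 and 230 against 1629 and 1194 in WT line 2. TRIM24-KO went from 318 and 435 to 779 and 1363, whereas TRIM33-KO went from 304 and 336 to 2254 and 2184. The arms overlapped in WT and in no other line. On the log2 scale L1Md_A rose by 0.91 ± 0.20 (adjusted p = 0.00327) in WT pLV2 line 1 but by 2.45 ± 0.21 (4.73e-08) in line 2. Its rise was 1.51 ± 0.20 (2.18e-05) for TRIM24-KO against 2.79 ± 0.21 (7.5e-09) for TRIM33-KO. The rise in TRIM24-KO without its DOX replicate 2 was 1.04 (0.00016). L1Md_A did not pass in WT (0.43 ± 0.30, 0.709) or DUXBL-KO (0.51 ± 0.30, 0.516).

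L1Md_T had 2340 and 2535 CPM without DOX and 2863 and 3472 with DOX in WT, and 3473 and 3590 against 4412 and 3785 in DUXBL-KO. In the pLV2 set it had 2141 and 2201 against 2783 and 3117 in WT line 1, 967 and 744 against 2469 and 1982 in WT line 2. TRIM24-KO went from 1671 and 1869 to 2355 and 9897, whereas TRIM33-KO went from 1204 and 1321 to 3583 and 5845. No arms overlapped, and the 2 DOX libraries of TRIM24-KO were farther apart than those of any other line. L1Md_T rose by 1.38 ± 0.39 (adjusted p = 0.0135) in WT pLV2 line 2, 1.79 ± 0.40 (0.00342) in TRIM24-KO and 1.90 ± 0.40 (0.00102) in TRIM33-KO. Without TRIM24-KO DOX replicate 2 its change in TRIM24-KO was 0.41 (0.249). In WT pLV2 line 2 it was 1.20 (0.0991) without no DOX replicate 2 and 1.21 (0.0786) without DOX replicate 1, so the call was lost and most of the change was kept.

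L1Md_F, L1Md_F2 and L1Md_Gf are the remaining members. L1Md_F rose in all 6 lines, from 0.76 ± 0.14 (adjusted p = 0.0337) in WT to 2.54 ± 0.16 (5.02e-10) in TRIM33-KO, and the WT value was 0.69 (0.216) and 0.87 (0.124) without no DOX replicates 1 and 2 and 0.63 (0.200) without WT DOX replicate 1. L1Md_F2 rose in 5 lines, up to 2.35 ± 0.20 (4.94e-08) in TRIM33-KO, and in WT it stood at 0.65 ± 0.14 (0.0593). In DUXBL-KO it rose by 0.93 ± 0.14 (0.00844), with 0.91 (0.0530) without DUXBL-KO DOX replicate 1. The rises in TRIM24-KO without its DOX replicate 2 were 2.00 for L1Md_F and 1.177 for L1Md_F2, against 2.34 and 1.76 with it. L1Md_Gf rose in WT pLV2 line 2 (1.12 ± 0.11, 4.41e-07) and TRIM33-KO (1.23 ± 0.11, 7.84e-08), the 2 lines where it had under 90 CPM in both libraries without DOX.

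**Figure D1:**
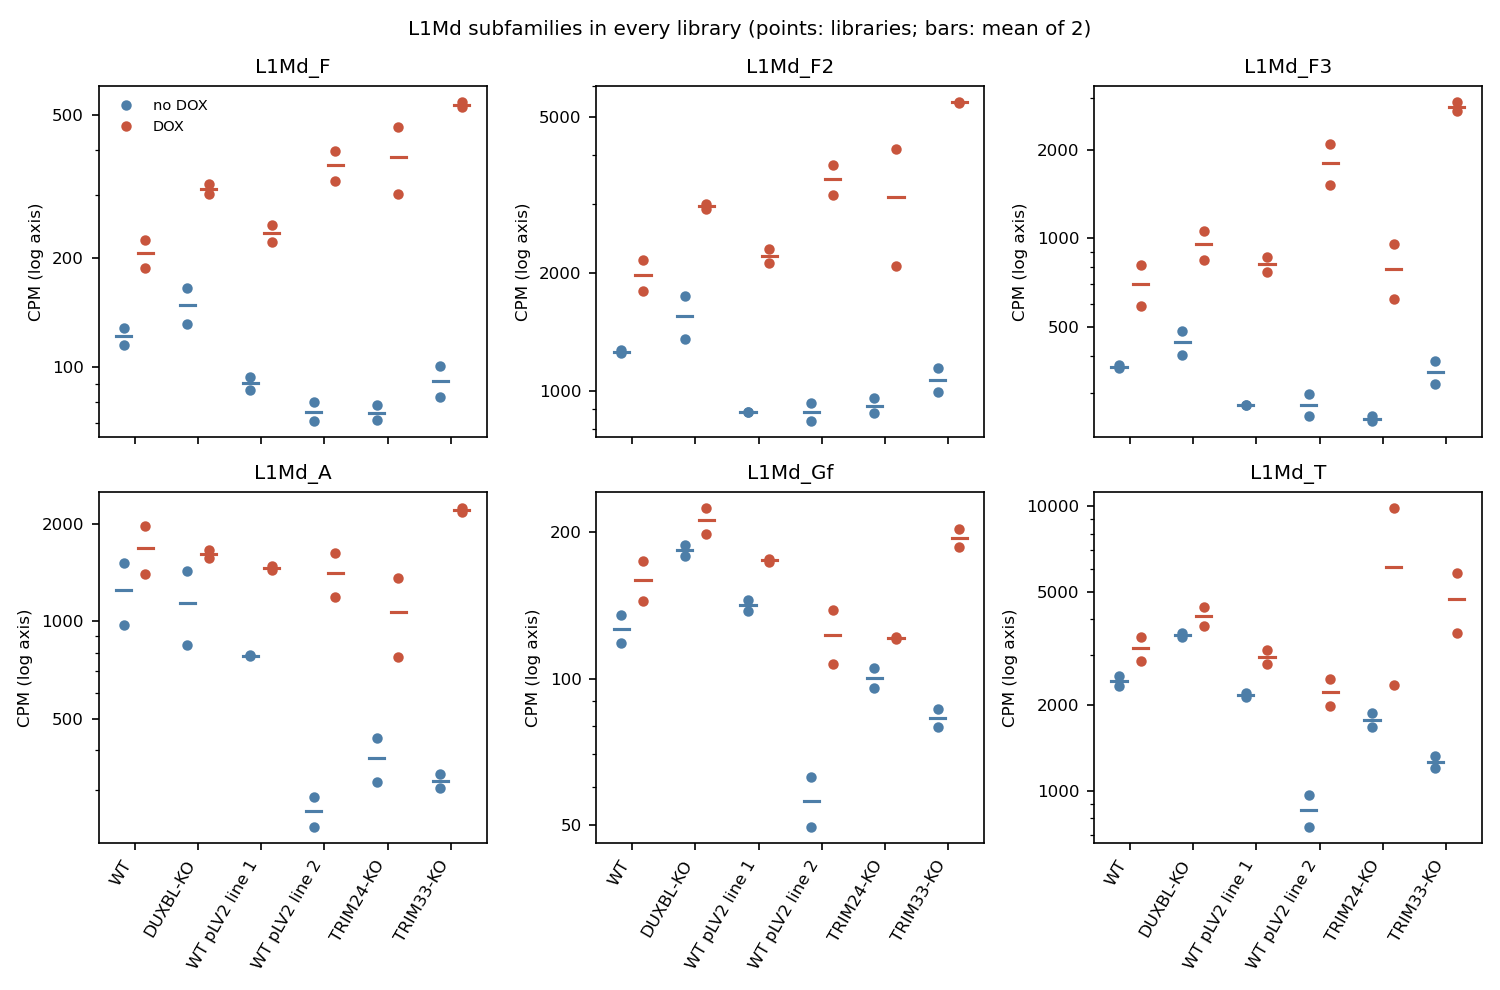
Level of each L1Md subfamily in CPM (log axis, a separate scale in each panel) in the 6 lines, without DOX (blue) and with DOX (red); points are libraries and bars the mean of 2. L1Md_F3 separates the arms in every line, and L1Md_T in TRIM24-KO shows DOX libraries at 2355 and 9897 CPM.

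In counts of calls (edgeR's quasi-likelihood test, Benjamini-Hochberg adjusted p under 0.05 over all genes and repeats), 2 of 6 L1Md, 12 of 33 rodent-named and 1 of 90 mammal-wide subfamilies rose in WT, where 6.11% of all repeat subfamilies were called higher. The mammal-wide one was L1M3d, named after its value was seen. In DUXBL-KO 3, 29 and 6 rose, against 19.14% of repeats. These counts moved when a library was left out, which also leaves an arm of 1. In WT no L1Md and no other L1 subfamily was called without either no DOX replicate, and 0 L1Md and 3 others without WT DOX replicate 1. Fitted on the WT groups alone, 0 L1 subfamilies were called, whereas DESeq2 called 3 L1Md, 24 rodent-named and 2 mammal-wide ones, with 108 of 982 repeats called. With the replicate number as a block, more of the other L1 subfamilies were called in WT, as given at the end. In DUXBL-KO 1 L1Md subfamily was called without DOX replicate 1, and 13, 11 and 16 others without no DOX replicate 1, DOX replicate 1 and DOX replicate 2.

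In WT pLV2 line 1, 4 of 6 L1Md, 33 of 33 rodent-named and 57 of 88 mammal-wide subfamilies rose, where 55.6% of repeats did. In WT pLV2 line 2 the counts were 6, 33 and 61, against 68.1% of repeats. TRIM24-KO had 5, 33 and 40, against 47.2%, and without its DOX replicate 2 it had 4 of 6, 31 of 33 and 27 of 89, against 34.1% of repeats. TRIM33-KO had 6, 33 and 67, against 74.8%. Except in WT pLV2 line 1, the share of mammal-wide subfamilies called lay near or below the share of all repeats, so it is no result about those members. The common coefficient of variation between replicates was 17.6% in the WT and DUXBL-KO set and 8.79% in the pLV2 set, so counts of calls cannot be compared between the sets.

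The number of L1 subfamilies called lower with edgeR was 0 in every line. Of all repeats, 0% were called lower for WT, DUXBL-KO or WT pLV2 line 2, against 0.102% for WT pLV2 line 1, 0.205% for TRIM24-KO and 0.614% for TRIM33-KO. At an unadjusted p under 0.05, 1 L1 subfamily was lower in TRIM24-KO, 1 in TRIM33-KO and 0 in the other lines, and DESeq2 called 0 in each line.

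The median log2 fold change with DOX showed the same order in 6 of 6 lines, with the L1Md and rodent-named groups above the mammal-wide group. For L1Md, rodent-named and mammal-wide subfamilies WT gave medians of 0.54, 0.65 and 0.19, whereas DUXBL-KO gave 0.72, 0.97 and 0.23. WT pLV2 line 1 gave 1.12, 1.30 and 0.56, while line 2 gave 2.12, 1.89 and 0.63. The medians were 1.73, 1.43 and 0.39 for TRIM24-KO but 2.44, 2.25 and 0.86 for TRIM33-KO. The median over all repeat subfamilies tested was 0.22, 0.32, 0.63, 0.96, 0.52 and 1.17 in the same order of lines, and it lay above the mammal-wide median in each. Without TRIM24-KO DOX replicate 2 the medians for TRIM24-KO were 1.11, 1.15 and 0.24, and 0.41 over all repeats. L1Md did not exceed the rodent-named group in WT, DUXBL-KO or WT pLV2 line 1, nor in TRIM24-KO without that library.

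**Figure D2:**
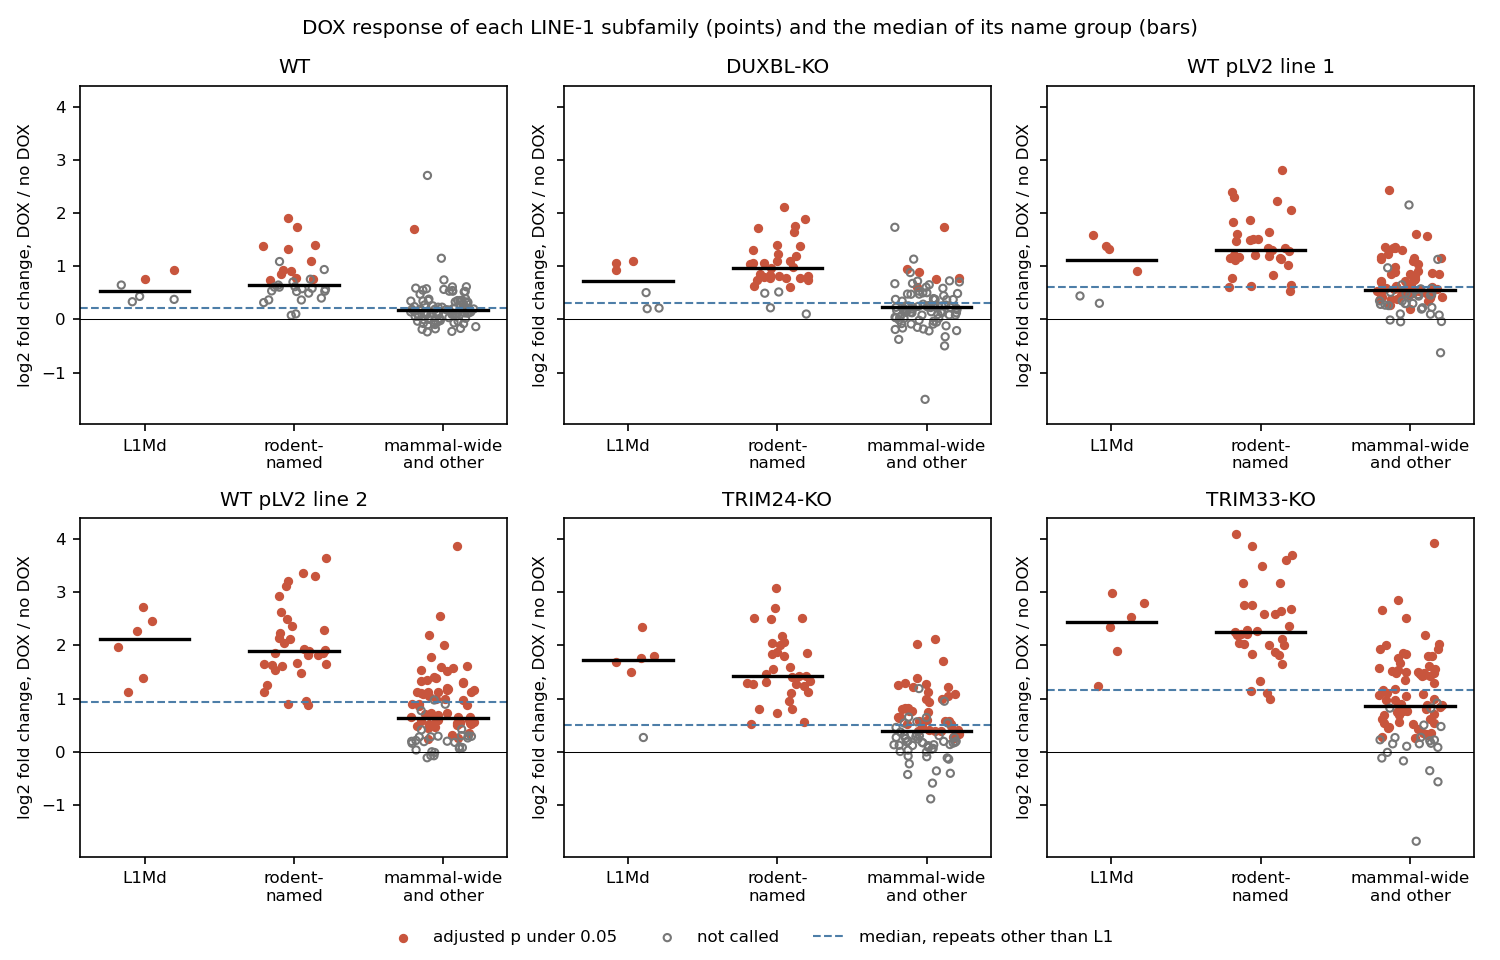
Log2 fold change with DOX of each tested L1 subfamily by name group in the 6 lines; filled points passed an adjusted p of 0.05, black bars are group medians and the dashed line is the median of repeats other than L1. In TRIM33-KO the 3 medians are 2.44, 2.25 and 0.86.

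The rodent-named subfamilies that moved furthest were low in level. Lx2A had 7.15 and 6.44 CPM without DOX and 32.7 and 18.3 with DOX in WT, and 9.96 and 9.31 against 45.9 and 38.1 in DUXBL-KO. In the pLV2 set it had 4.0 and 5.13 against 30.2 and 33.7 in WT line 1, 5.01 and 4.09 against 57.5 and 57.3 in WT line 2. TRIM24-KO went from 4.80 and 4.56 to 32.8 and 47.5, whereas TRIM33-KO went from 4.77 and 5.25 to 90.7 and 81.2. Lx2A was named by its small p and separate arms in WT, DUXBL-KO, WT pLV2 line 1 and TRIM24-KO, so neither is support there. The arms overlapped in no line, and in WT the DOX arm lay wholly above for 31 of 33 rodent-named subfamilies. The log2 fold change of Lx2A was lowest in WT (1.91 ± 0.28, adjusted p = 0.0115) and highest in TRIM33-KO (4.10 ± 0.16, 1.09e-12). The WT value was 1.99 (0.0914) without WT no DOX replicate 1 and 1.86 (0.117) without replicate 2, as large as with all libraries.

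Lx3A, a second Lx subfamily, rose from 1.41 ± 0.18 (adjusted p = 0.0078) in WT to 3.49 ± 0.14 (1.18e-12) in TRIM33-KO. It was named by the same rule in WT, DUXBL-KO, WT pLV2 line 2 and TRIM24-KO. The WT value was 1.45 (0.0660) without WT no DOX replicate 1 and 1.40 (0.0773) without replicate 2. Lx2A1 ranged from 1.74 in WT to 3.87 in TRIM33-KO, and the WT value was 1.68 (0.107) and 1.85 (0.0907) without no DOX replicates 1 and 2. The abundant rodent-named subfamilies moved less. L1_Mus3 had 975 and 970 CPM without DOX and 1386 and 1185 with DOX in WT, and 825 and 941 against 3188 and 3108 in TRIM33-KO. It rose by 0.61 ± 0.14 (0.0493) in DUXBL-KO, 1.03 ± 0.12 (3.54e-06) in WT pLV2 line 1 and 1.83 ± 0.12 (1.03e-09) in TRIM33-KO, and its value in WT was 0.40 ± 0.14 (0.279). The DUXBL-KO value of L1_Mus3 was 0.43 (0.179) without no DOX replicate 1, 0.58 (0.224) without DOX replicate 1 and 0.64 (0.166) without DOX replicate 2.

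L1MC2, a mammal-wide subfamily, was named because it had one of the 2 smallest p-values in TRIM33-KO. It had 19.8 and 18.5 CPM without DOX against 31.0 and 27.6 with DOX in WT, and 18.8 and 22.9 against 38.8 and 41.9 in DUXBL-KO. In the pLV2 set it had 10.1 and 9.38 against 29.4 and 28.2 in WT line 1, 14.7 and 13.4 against 51.6 and 45.5 in WT line 2. TRIM24-KO went from 13.5 and 12.5 to 42.5 and 42.6, whereas TRIM33-KO went from 13.9 and 13.1 to 79.95 and 74.3. The arms overlapped in no line, which the naming rule required in TRIM33-KO. There the DOX arm lay wholly above for 75 of 88 mammal-wide subfamilies. The log2 fold change of L1MC2 reached 2.52 ± 0.10 (adjusted p = 7.53e-13) in TRIM33-KO and was 0.62 ± 0.14 (0.0707) in WT. In DUXBL-KO it rose by 0.95 ± 0.14 (0.00722), with 0.82 (0.0538) without no DOX replicate 1 and 0.89 (0.0504) without DOX replicate 2.

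Called higher in all 6 lines were L1Md_F and L1Md_F3, 12 rodent-named subfamilies (L1_Mur2 and 11 Lx subfamilies) and L1M3d, where 6.26% of the repeats tested in both sets were. Another 18 of 88 mammal-wide subfamilies, among them L1M8, L1ME4b and L1P5, were called higher in no line, as were 22.9% of all repeats tested in the pLV2 set, a share near theirs. Below the filter on low counts were 4 members in the WT and DUXBL-KO set (L1M2a1, L1M3a, L1M6B and X9_LINE, at most 9 counts in a library) and 6 in the pLV2 set (also L1M2b and L1MEg1, at most 10 counts).

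**Figure D3:**
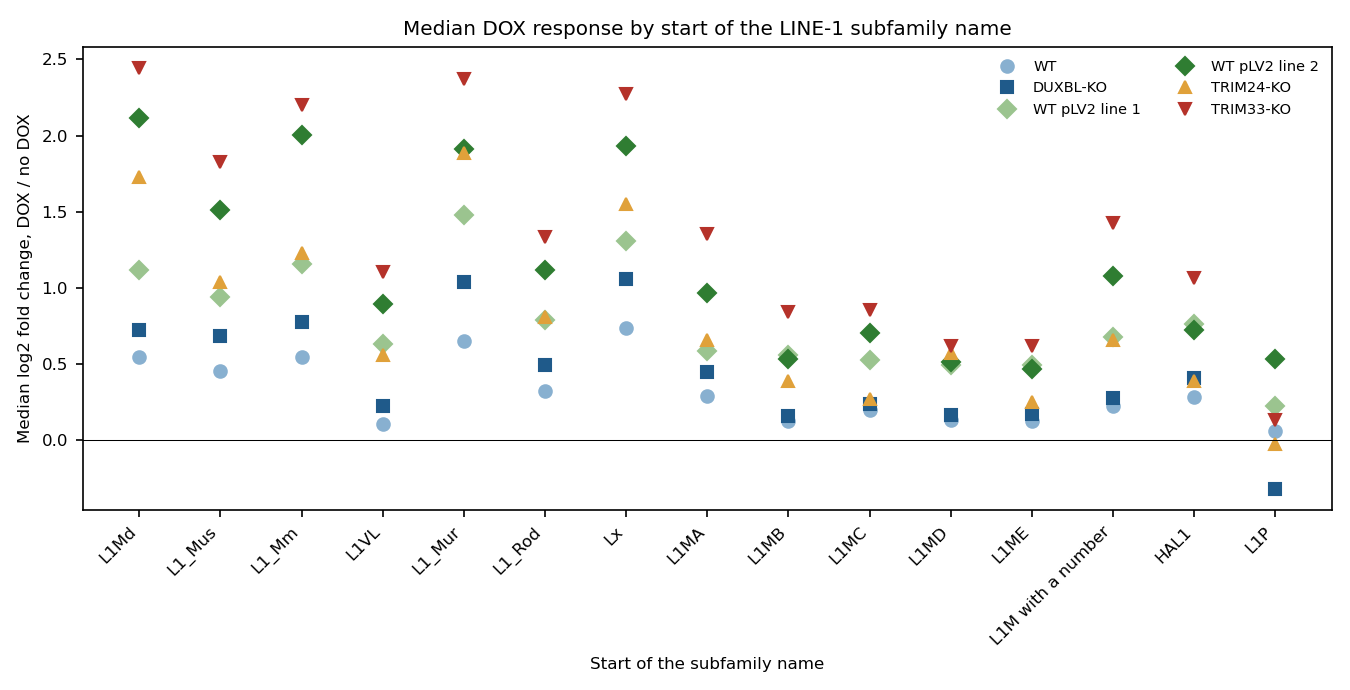
Median log2 fold change with DOX of the L1 subfamilies that share the start of their name, in the 6 lines; HAL1 includes MusHAL1, and L1_Mm and L1_Rod hold 1 subfamily each. In TRIM33-KO the medians run from 0.13 for L1P to 2.44 for L1Md.

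By summed level, L1Md RNA rose from 5564 ± 559 CPM to 7899 ± 418 (SD, n = 2) in WT, a ratio of 1.42, and from 6999 ± 847 to 10155 ± 601 in DUXBL-KO, a ratio of 1.45. The pLV2 ratios were 1.81 for WT line 1, 3.91 for WT line 2, 3.33 for TRIM24-KO and 5.01 for TRIM33-KO. The other L1 subfamilies together had ratios of 1.37 for WT, 1.58 for DUXBL-KO, 1.96 and 2.72 for WT lines 1 and 2, 2.09 for TRIM24-KO and 3.44 for TRIM33-KO. The arms overlapped in no line for either sum. Without TRIM24-KO DOX replicate 2 the L1Md value in TRIM24-KO fell from 1.74 to 0.85 on the log2 scale, beside 0.82 for the other L1 subfamilies. In bulk RNA, fewer responding cells and less RNA per cell cannot be told apart.

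**Figure D4:**
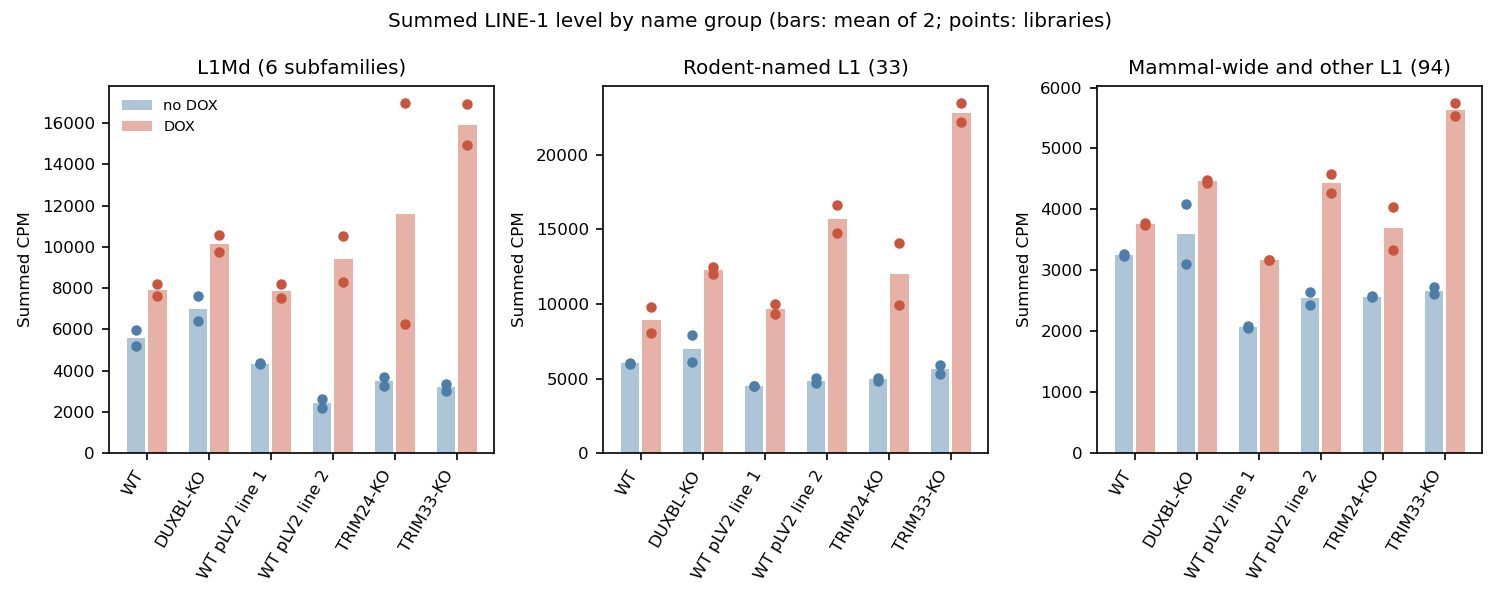
Summed CPM of the L1Md, rodent-named and mammal-wide subfamilies in the 6 lines (bars are the mean of 2 libraries, points the libraries, blue without and red with DOX). The L1Md sum with DOX is 15916 CPM in TRIM33-KO, and the 2 libraries of TRIM24-KO with DOX stand at 6269 and 16949.

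Repeats as a whole rose, so the same fits were scaled on repeat counts alone, which measures a subfamily against the other repeats. The median log2 fold change of all genes was then -0.24 in WT and -1.35 in TRIM33-KO, against 0.01 and -0.12 on the gene scale. The L1Md and rodent-named medians stayed above 0 in every line. The mammal-wide median was below 0 in every line, from -0.04 in WT pLV2 line 1 to -0.35 in TRIM33-KO. This scale centres the repeats near 0, so many repeats are called lower by its construction. In TRIM33-KO 19 of 89 mammal-wide subfamilies were then called higher and 47 lower, where 36.1% of all repeats were called higher and 36.7% lower. On the gene scale the split was 67 and 0. WT pLV2 line 2 had 17 higher and 39 lower of 89, beside 34.4% and 29.2% of repeats. TRIM24-KO had 16 and 21, beside 29.3% and 19.6%. WT pLV2 line 1 had 16 and 8, beside 27.3% and 12.6%. L1Md_Gf and L1Md_T changed sign in DUXBL-KO and WT pLV2 line 1, L1Md_Gf also in TRIM24-KO, and L1_Mus1 in TRIM33-KO.

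Without DOX the lines were compared to ask whether L1 RNA differed before induction. DUXBL-KO had 0 L1 calls against WT with edgeR, as had all repeats (0%), while 6 had an unadjusted p under 0.05 (DESeq2 called 1). The line labelled TRIM24-KO had 22 L1 subfamilies above the mean of both WT pLV2 lines, all mammal-wide, where 17.2% of repeats were called. That is 22 of 127, near the share of all repeats, so the count is no result about L1. That count was 14 without WT pLV2 line 1 no DOX replicate 1, and 9 and 8 without TRIM24-KO no DOX replicates 1 and 2. The fibroblast genes described further on summed to 634 to 745 CPM in TRIM24-KO without DOX, against 1425 to 1491 in WT pLV2 line 1 and 1660 to 1793 in line 2, and their part in this comparison was not tested. TRIM33-KO had 37, of which 12 were rodent-named and 25 mammal-wide, where 12.2% of repeats were called. It was 18 without either no DOX library of WT pLV2 line 1, 16 without WT pLV2 line 2 no DOX replicate 2, and 23 and 3 without TRIM33-KO no DOX replicates 1 and 2. Against WT pLV2 line 2 alone the 2 counts were 5 and 1, and against line 1 alone 45 and 76.

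The 2 WT pLV2 lines differed from each other without DOX. L1Md_A, L1Md_Gf and L1Md_T were lower in line 2, by -1.60 ± 0.20, -1.33 ± 0.11 and -1.34 ± 0.39, while L1Md_F2 and L1Md_F3 stood at 0.00 and 0.01. In all, 43 L1 subfamilies were higher and 4 lower, where 21.4% of repeats were called, and 42 of the 43 were mammal-wide. The count of 47 fell to 30 and 22 without line 1 no DOX replicates 1 and 2, and to 24 without line 2 no DOX replicate 1.

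The DOX response itself was then compared between lines. For DUXBL-KO against WT edgeR called 0 L1 subfamilies and 0% of repeats, while 1 had an unadjusted p under 0.05 (DESeq2 called 0). For TRIM24-KO against both WT pLV2 lines it called 0 L1 subfamilies, with 1.23% of repeats called. DESeq2 called 0. The share of all repeats at an unadjusted p is not given, so the unadjusted counts are no result about L1. At an unadjusted p under 0.05 edgeR found a smaller response in 19 L1 subfamilies and a larger one in 1. Without TRIM24-KO DOX replicate 1 or without replicate 2 it called 4. For TRIM33-KO the response was larger in 31 L1 subfamilies (2 L1Md, 22 rodent-named and 7 mammal-wide), where 17.1% of repeats were called. Among them, L1Md_A differed by 1.11 ± 0.24 (adjusted p = 0.0255) and L1Md_F3 by 0.83 ± 0.20 (0.0445).

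The TRIM33-KO count depended on the reference. It was 54 against WT pLV2 line 1 alone and 0 against line 2 alone. It was 18 without either no DOX library of WT pLV2 line 1 and 19 without line 1 DOX replicate 1. Without TRIM33-KO no DOX replicates 1 and 2 it was 7 and 8, and without TRIM33-KO DOX replicates 1 and 2 it was 4 and 18. Both WT lines also differed in their response, which was larger in line 2 for 8 L1 subfamilies, where 5.83% of repeats were called. That is 8 of 127, near the share of all repeats, so the count is no result about L1. These were L1Md_A (1.55 ± 0.28, adjusted p = 0.0134), L1Md_F3 (1.13 ± 0.23, 0.0302), L1Md_Gf (0.82 ± 0.16, 0.0189) and 5 rodent-named subfamilies. That count was 0 without line 1 no DOX replicate 1, no DOX replicate 2 or DOX replicate 1, and 0 without line 2 no DOX replicate 2. It was 5 without line 1 DOX replicate 2, and 1 and 16 without line 2 DOX replicates 1 and 2.

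Markers of the DUX state differed between lines too. MERVL-int had 91.1 to 238 CPM in libraries without DOX and, with DOX, 23202 and 9958 for WT but 37197 and 33991 for DUXBL-KO. The pLV2 DOX libraries had 16215 and 19803 CPM for WT line 1, 57185 and 45477 for WT line 2, 23451 and 31753 for TRIM24-KO but 90188 and 73443 for TRIM33-KO. The 8 genes of the 2-cell-like list summed to 0.243 to 5.60 CPM without DOX, and with DOX to 762 to 1950 CPM for WT and 1384 to 2130 for DUXBL-KO. In the pLV2 set with DOX they summed to 1421 to 1732 for WT line 1, 3912 to 5241 for WT line 2, 1398 to 1990 for TRIM24-KO and 6337 to 7423 for TRIM33-KO. With DOX, Dux itself had 1.39 and 1.10 CPM in WT and 4.90 and 2.87 in DUXBL-KO, where the L1 medians were higher. Between the WT pLV2 lines it ran the other way, with 7.23 and 8.34 CPM in line 1 and 4.44 and 4.0 in line 2, where the L1 medians were higher. TRIM24-KO had 3.15 and 2.98 and TRIM33-KO 6.95 and 5.70. The part of induction strength in the differences between lines was not tested. Growth on feeder cells is mentioned in the labels. The 10 fibroblast genes summed to 634 to 1875 CPM over all libraries. At least 2 of Postn, Lum, Dcn and Col3a1 were listed at 0 in each group, while the rest of the list was at 0 in none. Whether feeder cells were present was not tested.

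Genes linked to L1 control were described from a list of 46 tested genes. The list covers repeat silencing, DNA methylation, and RNA level and restriction. It holds genes of opposite action, such as Tet2 and Dnmt1. WT had 0 calls, where 3.09% of all genes were called. DUXBL-KO also had 0, where 5.25% were. An unadjusted edgeR p under 0.05 was found for 4 and 5 of them, while DESeq2 called 0 and 1. In WT pLV2 line 1, 5 were higher and 5 lower (15.5% of genes called), and in TRIM24-KO 4 and 5 (17.2%). In WT pLV2 line 2, 5 were higher and 15 lower (26.5%), and in TRIM33-KO 6 and 24 (38.5%). The TRIM33-KO counts became 10 and 14 with RLE factors, under which the median of all genes moved from -0.12 to -0.01. These shares of genes count both directions, so they do not show whether the split into higher and lower is particular to the list.

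Trim28, the corepressor that recruits silencing to repeats, rose in all 4 pLV2 lines, by 0.27 to 0.46 on the log2 scale. Ythdc1, a reader of methylated RNA, rose in the same lines, by 0.41 to 0.81. Tex19.1 rose in them by 0.70 to 1.03, the largest rise of the list in each. Tet2, a DNA demethylase, fell by 0.73 in TRIM24-KO, 0.71 in WT pLV2 line 2 and 0.95 in TRIM33-KO. The next largest falls in TRIM33-KO were Apobec3 (-0.87), Zcchc8 (-0.57) and L1td1 (-0.56). Mphosph8, a subunit of the HUSH silencing complex, fell in all 4 pLV2 lines, by 0.20 to 0.36, while its value was 0.24 in WT (adjusted p = 0.396) and 0.09 in DUXBL-KO (0.760), both not called. Setdb1, the histone methyltransferase that works with Trim28, rose in both WT pLV2 lines (0.26 in each). Dnmt1, the maintenance DNA methyltransferase, fell by 0.22 in TRIM33-KO, and Ncl and Morc2a were called in no line.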

How the data were processed

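Per the labels' protocols, the 24 RNA-seq libraries were made with a directional kit after rRNA depletion and read from both ends. The deposited tables hold raw counts per gene and repeat subfamily as whole numbers, per the file headers. The submitters' processing notes name bcl2fastq 2.20.0, cutadapt 1.18, STAR 2.7.6a and mm10; the counting tool, its strand setting and its treatment of reads matching several places are not given in the sources used here, so reads of similar subfamilies, or of L1 pieces inside other transcripts, cannot be told apart. Of 55487 gene IDs, 346 did not match GENCODE M21.

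Groups came from the titles. The 2 sets were fitted apart by edgeR's two-sided quasi-likelihood test (version 4.0.16, R 4.3.3; 1 mean per group), genes and repeats together, with filterByExpr, TMM factors from gene counts, and Benjamini-Hochberg adjustment over all features (threshold 0.05). This kept 129 and 127 L1 subfamilies. CPM uses the same TMM-adjusted library sizes. Alternatives were RLE factors, library sizes from genes and repeats or from repeats alone, no filter, a mean of at least 10 counts, DESeq2 1.42.0, adjustment over repeats alone, only the compared groups, a replicate block, each WT pLV2 line alone and leaving out each library. Leaving out libraries for the summed levels, and the finer name groups, were chosen after seeing the data. The fit was checked on simulated counts with the spread of the real libraries: estimates and signs were recovered, while 2-fold changes at low counts were often not called, more so in the WT and DUXBL-KO set. The first version of that check required a share of calls that the fit did not reach and was replaced by conditions on size, sign and false calls.

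Named members were all L1Md, the 6 other L1 subfamilies with the highest mean CPM, and per line the 2 rising and 2 falling with the smallest p (mean of at least 50 counts, arms not overlapping); no falling member qualified. The members, lists and rules were chosen with earlier results of these data known. The host factor and marker lists come from general knowledge. No L1 sequence was used here.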

Additional observations from a re-analysis of the deposited data

Results flagged for a closer look

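The DOX response differed between lines by a test of the difference itself (edgeR interaction term) in the results below; the direction is larger in the line named first, on the log2 scale. For TRIM33-KO against the mean of both WT pLV2 lines this held for 31 of 127 L1 subfamilies, where 17.1% of all repeats were called, and for 4 to 36 when a library was left out. The named ones were L1Md_A (1.11), L1Md_F3 (0.83), L1_Mus2 (0.66), Lx2A1 (0.99), Lx2A (0.88), Lx3A (0.90), Lx8 (0.64), Lx9 (0.63) and L1MC2 (0.85). Against WT pLV2 line 2 alone no L1 subfamily passed.

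For WT pLV2 line 2 against line 1 it held for 8 of 127 L1 subfamilies, near the 5.83% of all repeats called, and for 0 to 16 when a library was left out. Among them were L1Md_A (1.55), L1Md_F3 (1.13), L1Md_Gf (0.82) and Lx3A (1.06). L1Md_A and L1Md_Gf also had lower levels in line 2 without DOX, at -1.60 and -1.33, whereas L1Md_F3 stood at 0.01. Groups of 2 libraries are too small for a test of outlying libraries.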

How the results depend on the processing

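Leaving out a library leaves an arm of 1, assumed to vary like the other groups. It gave these ranges of calls with DOX, for L1Md and then for other L1 subfamilies: 0 to 2 and 0 to 16 (WT), 1 to 3 and 11 to 47 (DUXBL-KO), 4 to 4 and 70 to 77 (WT pLV2 line 1), 5 to 6 and 83 to 90 (WT pLV2 line 2), 4 to 5 and 58 to 80 (TRIM24-KO), and 6 to 6 and 92 to 96 (TRIM33-KO). Without DOX the ranges were 0 to 0 (DUXBL-KO), 8 to 23 (TRIM24-KO), 3 to 45 (TRIM33-KO) and 22 to 46 (WT pLV2 line 2 against line 1). For the DOX response they were 0 to 0, 0 to 4, 4 to 36 and 0 to 16 in that order.

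Other settings moved counts as follows, and the cause was not tested. In WT, L1Md calls with DOX were 0 with library sizes from repeats alone, 5 without a filter and 0 with only the compared groups. Other L1 calls there were 23 (adjusted over repeats alone), 7 (sizes from repeats), 34 (no filter), 0 (compared groups) and 26 (DESeq2). Sizes from repeats alone gave 16 other L1 calls for DUXBL-KO and 52 for WT pLV2 line 1. DUXBL-KO without DOX had 2 calls with no filter and 1 with DESeq2.

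TRIM24-KO without DOX had 9 calls adjusted over repeats alone, 45 and 5 against WT pLV2 line 1 or 2 alone, 7 with sizes from repeats and 12 with DESeq2; its DOX response had 2 against line 2 alone, 1 with sizes from repeats and 8 with no filter. TRIM33-KO without DOX had 13 adjusted over repeats alone, 76 and 1 against line 1 or 2 alone, 23 with RLE, 4 with sizes from repeats and 19 with DESeq2. Its DOX response had 65 adjusted over repeats alone, 54 and 0 against line 1 or 2 alone, 48 with RLE, 56 with no filter, 53 with the compared groups and 56 with DESeq2. WT pLV2 line 2 against line 1 had 14 without DOX with sizes from repeats; its DOX response had 31 adjusted over repeats alone, 16 with RLE, 38 with no filter, 36 with the compared groups and 26 with DESeq2.

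Among named members, 1144 values under an alternative kept direction and side of the threshold, 62 lost a call, 36 gained one and 6 reversed. The reversals came with sizes from repeats alone: L1Md_Gf -0.23 and L1Md_T -0.21 (DUXBL-KO), L1Md_Gf -0.29 and L1Md_T -0.15 (WT pLV2 line 1), L1Md_Gf -0.27 (TRIM24-KO) and L1_Mus1 -0.072 (TRIM33-KO). With those sizes the log2 ratio of the summed L1Md level was 0.26 (WT), 0.13 (DUXBL-KO), 0.26 (WT pLV2 line 1), 1.06 (WT pLV2 line 2) and 1.11 (TRIM33-KO); of other L1 it was 0.20, 0.26, 0.37, 0.54 and 0.56 for the same lines, 0.51 for TRIM24-KO, and 1.89 for TRIM33-KO with RLE. Leaving out libraries, the L1Md ratio ranged over 0.41 to 0.61 (WT), 0.42 to 0.67 (DUXBL-KO), 0.79 to 0.92 and 1.79 to 2.13 (WT pLV2 lines 1 and 2), 0.85 to 2.28 (TRIM24-KO) and 2.23 to 2.41 (TRIM33-KO), and the other L1 ratio over 0.35 to 0.55, 0.48 to 0.86, 0.93 to 1.00, 1.36 to 1.52, 0.82 to 1.27 and 1.72 to 1.85.

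With the replicate number as a block, 22 other L1 subfamilies were called with DOX in WT, against 13 without it, and no other count of L1 calls moved by over 1.5 times; 91 named values kept and 5 gained a call. Correlations of replicate differences were 0.252 to 0.536 in the WT and DUXBL-KO set and -0.0487 to 0.191 in the pLV2 set, but each group has only 2 numbers and the labels tie them to no shared culture or day, so they were not used as pairs.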
